A study of Saccharomyces cerevisiae SK1 with 28 samples.

Results

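The tables of promoters bound in SK1 budding yeast listed 92 genes that carried no standard gene name, of 561 listed genes in all. They were found by 1 rule, an empty gene symbol or a symbol equal to the systematic name. Of the 92 genes, 82 had a systematic name and 10 had nothing but an identifier of the SK1 annotation. The rule used no measured value. The label of the set holds only in part, because the RefSeq table of the R64 assembly (strain S288C) gives a standard symbol to 49 of the 82 genes. The other 33 have no symbol there either. Such symbols are added below in brackets.

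All libraries came from wild-type SK1, a laboratory strain that sporulates efficiently, and 7 states were sampled with 2 ChIP libraries each. The states were vegetative growth plus DTT, premeiotic starvation in BYTA medium for 6 h or 21 h, sporulation medium sampled after 5.5 h, 6 h 45 min and 8 h, and exponential growth in rich medium without DTT, here called vegetative. The genotype label, WT, was the same in every library. The labels name neither the immunoprecipitated protein nor how much DTT was added and for how long, and they do not say whether replicates were separate cultures.

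A standard yeast gene name is usually given when a function or a mutant phenotype is described, so genes without one are mostly those whose product is little studied. The systematic name encodes chromosome arm, order and strand, and a letter suffix such as the one in YPR036W-A marks a reading frame added to the annotation later, often a short one. DTT is a reducing agent that hinders disulfide bond formation in the endoplasmic reticulum (ER) and sets off the unfolded protein response, in which Ire1 splices HAC1 mRNA and the Hac1 transcription factor activates genes of ER folding. Starved diploid yeast enters meiosis and packs the products into spores.

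Each row of a table pairs a peak summit with a promoter window of 600 bp that ends at a gene start. Genes with a listed summit in both libraries of a state are here said to be called in it. A gene that was not called or not listed may still be bound, since no label or header states how the listed summits were selected. The libraries listed between 4 and 296 summits and between 7 and 365 genes, and read depth is unknown. The 92 genes made up 196 of the 1369 listings of a gene in a library.

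Among these genes, most listings fell in DTT and at 6 h in BYTA. DTT libraries listed 49 genes in replicate 1 and 44 in replicate 2. At 6 h in BYTA, replicate 1 listed 61 and replicate 2 listed 21. Both libraries at 21 h in BYTA listed 3. In sporulation medium, replicate 1 listed 0 at each of the 3 times, and replicate 2 listed 4 genes after 5.5 h, 2 after 6 h 45 min and 4 after 8 h. The vegetative libraries listed 3 and 2. The replicate 1 tables of sporulation medium were short, with 7, 16 and 19 genes in all, so a count of 0 in the second and the third allows shares of up to 20.6% and 17.6% of the listed genes, and in the first a still wider range (exact Clopper-Pearson 95% intervals, which cover counting error only).

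**Figure D1:**
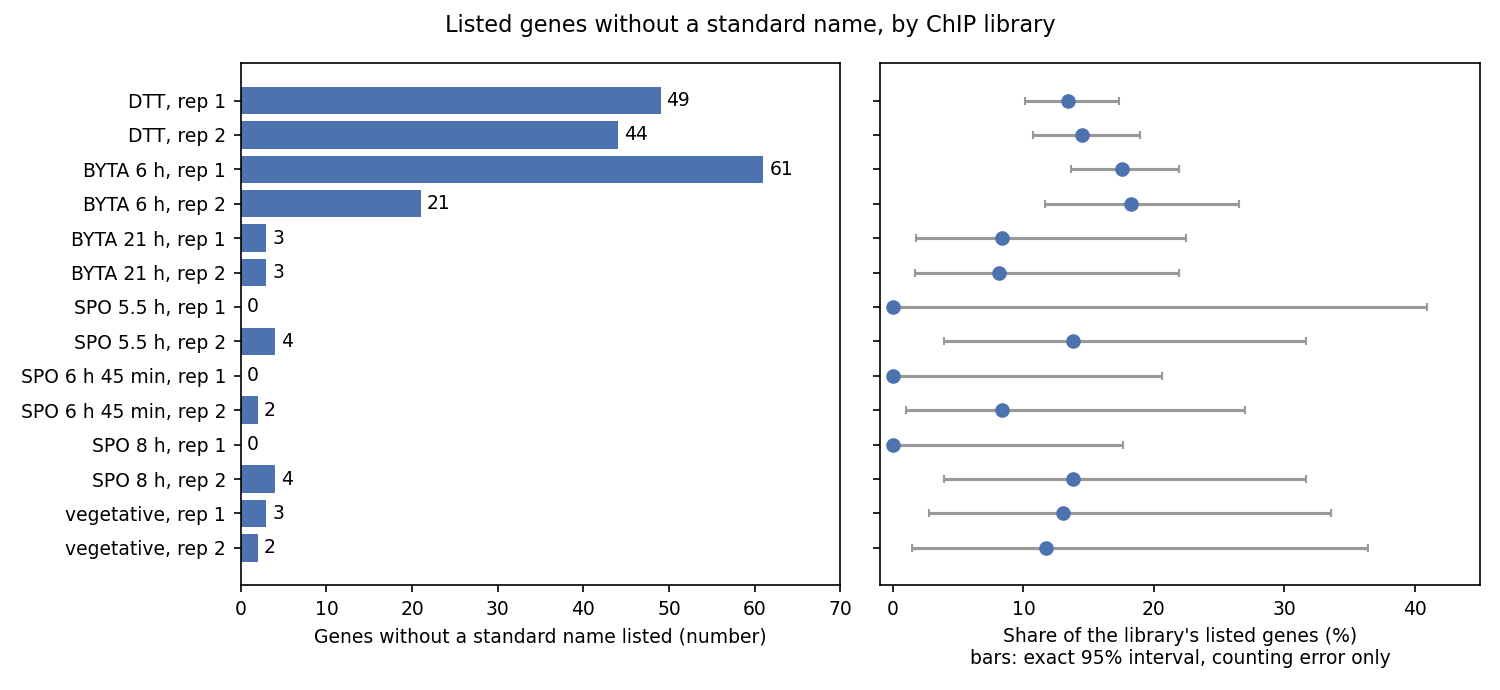
Number of listed genes without a standard name in each ChIP library (left, bars) and their share of all genes the library listed (right, points with exact 95% intervals for counting error). Rep is replicate and SPO is sporulation medium. DTT and 6 h BYTA libraries hold between 21 and 61 of these genes and every other library holds at most 4, while the intervals of the shares overlap across libraries.

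As a share of a library's genes the numbers were closer together. The share was 13.4% and 14.5% with DTT and 17.5% and 18.3% at 6 h in BYTA. It was 8.33% and 8.11% at 21 h in BYTA, 0% and 13.8% at 5.5 h, 0% and 8.33% at 6 h 45 min, 0% and 13.8% at 8 h in sporulation medium, and 13.0% and 11.8% in vegetative cells. Over the libraries labelled meiotic the share averaged 5.99% ± 6.85 (SD, n = 6), against 13.1% ± 5.59 (SD, n = 4) over those labelled premeiotic starvation. This difference of -7.07 percentage points did not pass a two-sided exact permutation test (p = 0.152, the smallest possible being 0.00476). The libraries of 1 label are different times, so they are not replicates of 1 condition.

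With DTT, 39 of the 92 genes were called (42.4%), against 247 of the 469 genes with a standard name (52.7%). Over all 561 genes the share called with DTT was 51.0%. At 6 h in BYTA 19 were called (20.7%), against 89 of the other genes (19.0%) and 19.3% of all genes. At 21 h in BYTA 3 were called (3.26%), against 24 of the others (5.12%) and 4.81% of all. Sporulation medium gave 0 called genes at each time, against 7, 13 and 17 of the others, and the shares of all genes called there were 1.25%, 2.32% and 3.03%. In vegetative cells 1 was called (1.09%), against 14 of the others (2.99%) and 2.67% of all. Counting genes listed in at least 1 library, DTT gave 54 of the 92 (58.7%), against 329 of the others (70.1%) and 68.3% of all genes. At 6 h in BYTA it gave 63 (68.5%), against 292 (62.3%) and 63.3% of all. At 21 h in BYTA 3 were listed (background 8.20%), after 5.5 h in sporulation medium 4 (5.17%), after 6 h 45 min 2 (4.81%), after 8 h 4 (5.53%), and in vegetative cells 4 (4.46%). The shares of called genes lie near the background or below it, and with 2 libraries in a state they were not tested. A DTT call without any vegetative listing was found for 39 of the 92 (42.4%), against 276 of all 561 genes (49.2%). Genes called at 6 h in BYTA and listed in no vegetative library were 19 of the 92 (20.7%), against 103 of the 561 (18.4%). Neither share of the 92 stands far from that of all genes.

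DTT or 6 h BYTA libraries, which had the longest lists, listed 87 of the 92 genes and 444 of the 469 others. A finer split by state was made for the set alone, so it has no background. Of the 92 genes, 33 were listed at 6 h in BYTA and in no other state. A further 30 were listed in DTT and 6 h BYTA alone, and 21 in DTT alone. Vegetative cells and DTT together gave 3, vegetative cells alone 1, and the remaining 4 were listed at 21 h in BYTA or in sporulation medium. Of the 4 genes listed at these late times, 0 were listed in DTT or 6 h BYTA libraries and 0 in vegetative ones. Among the other genes, 48 were listed at the late times and 26 of them (54.2%) also in DTT or at 6 h in BYTA. Vegetative libraries listed 9 of the 48. This contrast rests on 4 genes and was not tested. Of the 63 genes listed at 6 h in BYTA, 30 (47.6%) were also listed with DTT, against 177 of 292 other genes (60.6%). Of the 54 listed with DTT, 30 (55.6%) were also listed at 6 h in BYTA, against 177 of 329 (53.8%). These overlaps were not tested either. In 1 library alone 32 genes of the set were listed (34.8%), against 156 of the other genes (33.3%). No gene of the set was listed in more than 5 libraries. Few of the other genes were, with 10 (2.13%) in 10 libraries and 7 (1.49%) in 8 as the largest groups.

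**Figure D2:**
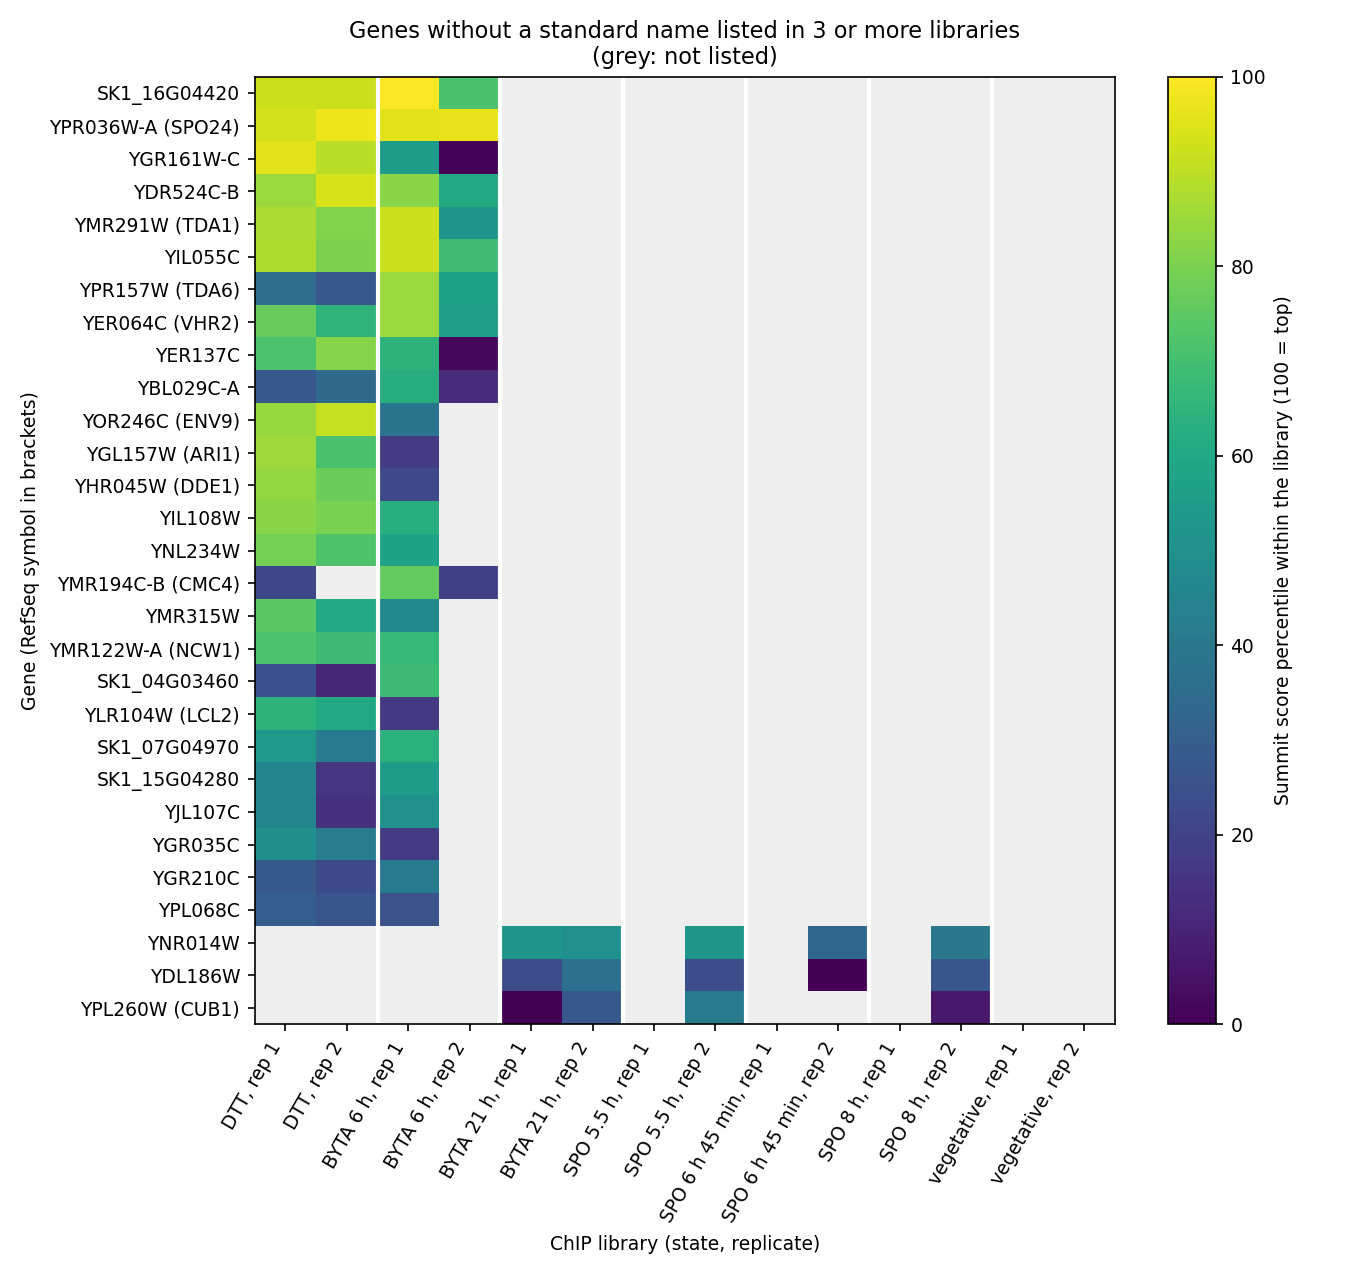
Score percentile of the summit within its library (colour, 100 is the top summit) for the 29 genes without a standard name listed in 3 or more libraries (rows) in the 14 ChIP libraries (columns). Grey means that the gene was not listed. The upper 26 genes have values in DTT and 6 h BYTA columns and the lower 3 in the columns of 21 h BYTA and of sporulation medium replicate 2, and no gene has values in both blocks.

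YPR036W-A (SPO24), which encodes a small protein involved in sporulation that is found at the prospore membrane, had the best mean rank of the set in both states that listed it. Its summit scores, a value of the authors whose type the files do not name, were 2187 and 1656 with DTT and 2212 and 1967 at 6 h in BYTA. These scores ranked 21 of 296, 7 of 245, 13 of 277 and 4 of 91 summits. It was listed in none of the other 10 libraries, sporulation medium included. Its window spans positions 645285 to 645884 of chromosome XVI, and the summits lay 387 and 375 bp upstream of the gene with DTT and 391 and 390 bp upstream at 6 h in BYTA. No other window held these summits.

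SK1_16G04420, an identifier for which the tables give no name, had the next best mean rank at 6 h in BYTA. It ranked 24 and 21 with DTT (scores 2153 and 1586), and 2 and 27 at 6 h in BYTA (scores 2408 and 896). Its window is at positions 922009 to 922608 of chromosome XVI on the minus strand. The summits lay 54 and 47 bp upstream with DTT and 55 and 51 bp upstream at 6 h in BYTA, the nearest to a gene start in the set. The mean distance of its 4 summits was 51.8 bp, against medians of 351 bp over the 92 genes and 340 bp over the others.

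Altogether 10 genes were listed in all 4 DTT and 6 h BYTA libraries. Beside SPO24 and SK1_16G04420 they were YMR291W (TDA1), YER064C (VHR2), YPR157W (TDA6), YIL055C, YDR524C-B, YGR161W-C, YER137C and YBL029C-A. TDA1 encodes a protein kinase that acts on hexokinase when glucose is low, and VHR2 a relative of a transcriptional activator of vitamin H transport. The 10 genes are 25.6% of the 39 called with DTT and 52.6% of the 19 called at 6 h in BYTA. For genes with a standard name, 68 were called in both states, which is 27.5% of 247 and 76.4% of 89.

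TDA1 had scores of 2001 and 1348 with DTT and 2010 and 587 at 6 h in BYTA, on ranks 38, 47, 22 and 44, with summits 376 to 397 bp upstream. YIL055C, whose product is not characterised, had scores of 2003 and 1283 with DTT and 2009 and 855 at 6 h in BYTA, with summits 543 to 581 bp upstream, near the far end of the window. Both genes scored above the middle of each of the 4 lists.

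YPR157W (TDA6) had scores of 555 and 497 with DTT, on ranks 191 of 296 and 179 of 245. At 6 h in BYTA its scores were 1627 and 688, on ranks 42 of 277 and 40 of 91. YGR161W-C stood the other way round, with ranks 14 of 296 and 26 of 245 under DTT, and 127 of 277 and 90 of 91 at 6 h in BYTA. Scores of different libraries are not on a known common scale and the lists differ in length, so these ranks describe each list alone.

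VHR2 ranked 69 of 296 and 86 of 245 with DTT, and 43 of 277 and 41 of 91 at 6 h in BYTA, with summits 401 to 428 bp upstream. YDR524C-B ranked 45 and 16 with DTT, and 50 and 36 at 6 h in BYTA. It shared all 4 summits with the window of SNA2, whose start was nearer in each library (318 to 337 bp, against 460 to 479 bp). YER137C ranked 84 of 296 and 45 of 245 with DTT, and 99 of 277 and 89 of 91 at 6 h in BYTA. YBL029C-A ranked 215 of 296 and 161 of 245 with DTT, and 105 of 277 and 80 of 91 at 6 h in BYTA.

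A further 15 genes were called with DTT and listed at 6 h in BYTA in replicate 1 and not in replicate 2. Replicate 2 had the shorter list, with 91 summits against 277. This count was not made for the other genes. Of all 286 genes called with DTT, 78 were also called at 6 h in BYTA and 106 were listed in neither of its libraries. YOR246C (ENV9), which encodes an oxidoreductase of lipid droplets, had the best mean rank of the 15 genes with DTT. Its DTT ranks were 47 and 22 (scores 1882 and 1578), and it stood at rank 171 of 277 in 6 h BYTA replicate 1. YGL157W (ARI1), for an NADPH-dependent aldehyde reductase, had ranks 44 and 71 with DTT and 229 at 6 h in BYTA. YLR104W (LCL2), whose product is linked to ER-associated degradation, had ranks 105 and 97 with DTT and 230 at 6 h in BYTA. YMR122W-A (NCW1), a cell wall protein gene, had ranks 85, 78 and 92. The others were YHR045W (DDE1), YIL108W, YNL234W, YMR315W, YGR035C, YGR210C, YJL107C, YPL068C, SK1_04G03460, SK1_07G04970 and SK1_15G04280. YNL234W encodes a globin-like heme protein.

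Of the 92 genes, 14 (15.2%) were called with DTT and missing from both 6 h BYTA lists, against 106 of all 561 genes (18.9%). YFR026C (ULI1), whose product is known to be induced by the unfolded protein response, was among them. It had scores of 958 and 669 on ranks 122 of 296 and 146 of 245, and summits 327 and 323 bp upstream. Its window spans positions 228925 to 229524 of chromosome VI on the minus strand, and no other window held the summits.

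The other 13 took in genes of transport, metabolism, the cell surface and complexes. YPR085C (ASA1), for a subunit of the ASTRA complex, had ranks 74 and 101, and YNL300W (TOS6), for a cell wall protein, had ranks 120 and 61. YOR378W (AMF1), for an ammonium transporter, had ranks 132 and 147, and YJR054W (KCH1), for a potassium transporter, had ranks 168 and 149. YJL045W (SDH9), for a minor form of a succinate dehydrogenase subunit, had ranks 258 and 172, with summits 577 and 582 bp upstream. YBR238C, a mitochondrial protein gene, had ranks 81 and 105, and YDL124W, for a reductase, had ranks 99 and 108. YJL055W (LOG1), YKR074W (AIM29), YPR109W (GLD1), YBR071W, YOR289W and YOR342C completed the 14.

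Of the 92 genes, 8 (8.70%) were called at 6 h in BYTA and listed in neither DTT library, against 28 of all 561 genes (4.99%). SK1_04G05350 had the best mean rank of these, with ranks 49 of 277 and 34 of 91. YLR307C-A (DPA10) had ranks 56 and 37, and YGR067C, a predicted zinc-finger protein gene, had ranks 63 and 38. SK1_12G04710 had ranks 48 of 277 and 65 of 91 and shared its summits with HXT11, a hexose transporter gene. YDR379C-A (SDH6), which encodes an assembly factor of succinate dehydrogenase, had ranks 59 and 73 and shared its summits with ARO10. YGR250C (RIE1), for an RNA-binding protein, had ranks 130 and 91, the last of its list in replicate 2. YGR050C and YJR115W were the remaining called genes.

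Single-library listings were mostly those of 6 h BYTA replicate 1, with 23 of the 32 genes. DTT replicate 1 held 6, DTT replicate 2 held 1 and 6 h BYTA replicate 2 held 2. In the same order, these libraries listed 348, 365, 304 and 115 genes in all. The single-library listings of the other genes were not split by library, so the counts have no background. The 23 include genes for respiration, RCF2 (YNR018W) and RGI1 (YER067W), and for lipids, UPS2 (YLR168C), FAT3 (YKL187C) and LPX1 (YOR084W). They also include the transcription factor genes COM2 (YER130C) and TOG1 (YER184C), the isomaltase gene IMA2 (YOL157C), and VIR1 (YGL036W), whose product takes part in mRNA methylation in meiosis. The remaining genes of this replicate were PUG1 (YER185W), RRT6 (YGL146C), MEO1 (YBR126W-A), MIN9 (YKL023C-A), SKA1 (YKL023W), YBR085C-A, YHR033W, YIR016W, YLR297W, YMR265C, YNL193W, YNL194C, SK1_13G04320 and SK1_14G03680. None of these 23 counts as called, and their best rank was 106 of 277, for RCF2.

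EFM1 (YHL039W) and SK1_02G01670 were the genes of 6 h BYTA replicate 2 alone, on ranks 86 and 75 of 91. MRX9 (YDL027C), MRX16 (YDR132C), YIL102C, YLR278C, YPR127W and SK1_06G00070 were listed in DTT replicate 1 alone, and TOS7 (YOL019W) in DTT replicate 2 alone. Genes listed in 1 DTT library and at 6 h in BYTA were SRF1 (YDL133W), RKM5 (YLR137W), PPN2 (YNL217W), DIF1 (YLR437C) and CMC4 (YMR194C-B). CMC4, for a mitochondrial protein, was in both libraries at 6 h in BYTA, on ranks 67 of 277 and 74 of 91.

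Late in starvation and in sporulation medium 4 of the 92 genes were listed, against 48 of the 469 others. The lists of these libraries were short, with 7 to 37 genes each. YNR014W had scores of 746 and 413 at 21 h in BYTA. In sporulation medium replicate 2 its score was 799 after 5.5 h, 463 after 6 h 45 min and 599 after 8 h. The summits lay 475 to 488 bp upstream in a window at positions 660677 to 661276 of chromosome XIV. YDL186W was listed in the same 5 libraries, with scores of 475 and 394 at 21 h in BYTA, and 617, 261 and 478 at the later times. The summits lay 317 to 325 bp upstream in a window at positions 138627 to 139226 of chromosome IV. The products of both genes are not characterised, and both shared every summit with a divergent named gene whose start was nearer, PHO91 for YNR014W and PPH22 for YDL186W.

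YPL260W (CUB1) was listed in both libraries at 21 h in BYTA, with scores of 344 and 355, and in sporulation medium replicate 2 at 5.5 h and at 8 h, with scores of 714 and 370. Its summits lay 201 to 220 bp upstream and in no other window. YLR224W (UCC1), which encodes an F-box protein that marks citrate synthase for degradation, was listed in replicate 2 at 5.5 h and at 8 h, with scores of 630 and 420. Both UCC1 summits lay 459 bp upstream and were shared with IFH1, a gene for a regulator of ribosomal protein genes, which lay 521 bp away. Genes called at 21 h in BYTA and missing from both 6 h BYTA lists were 3 of the 92 (3.26%), against 16 of all 561 (2.85%). In sporulation medium every listing of these 4 genes came from replicate 2.

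In vegetative cells YDR042C was the called gene, with scores of 500 and 426 on ranks 11 of 18 and 11 of 13. It was listed in no other state, and its summits lay 374 and 320 bp upstream. YDR065W (RRG1), for a mitochondrial protein, and YOR223W (DSC3), for a subunit of a Golgi ubiquitin ligase, were listed in vegetative replicate 1. YGL101W (YGK1) was listed in vegetative replicate 2. These 3 genes were also listed in DTT replicate 2 and not in DTT replicate 1. Their vegetative ranks were 16 and 15 of 18 and 13 of 13, among the lowest of those lists.

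Summit positions repeated closely. Between the DTT replicates the summits of the 39 called genes lay a median of 4 bp apart, with 28 within 10 bp and the largest gap at 43 bp. Between the replicates at 6 h in BYTA the median was 12 bp over 19 genes, and the largest gap, 66 bp, was that of YGR050C. For the other genes the medians were 6 bp over 247 genes and 8 bp over 89. Of the 60 genes listed in at least 2 libraries, 33 had all their summits within 10 bp.

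For the 30 genes listed in DTT and at 6 h in BYTA, the mean summits of the states lay a median of 8.75 bp apart, and all 30 lay within 100 bp. For 177 genes with a standard name the median was 12.5 bp. SK1_15G04280 had the largest shift, with summits 175 and 132 bp upstream under DTT and 67 bp upstream in 6 h BYTA replicate 1. YBL029C-A lay 520 and 512 bp upstream with DTT, against 447 and 424 bp at 6 h in BYTA. YGR161W-C lay 278 bp upstream in both DTT libraries, against 345 and 320 bp at 6 h in BYTA. Among the 10 genes listed in all 4 DTT and 6 h BYTA libraries, the values of the states overlapped for TDA1 and SK1_16G04420 alone. Of the rest, YBL029C-A alone lay nearer to the gene start at 6 h in BYTA than with DTT. These shifts were not tested. The largest range in the set was that of DSC3, 158 bp, with 580 bp in DTT replicate 2 against 422 bp in vegetative replicate 1.

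**Figure D3:**
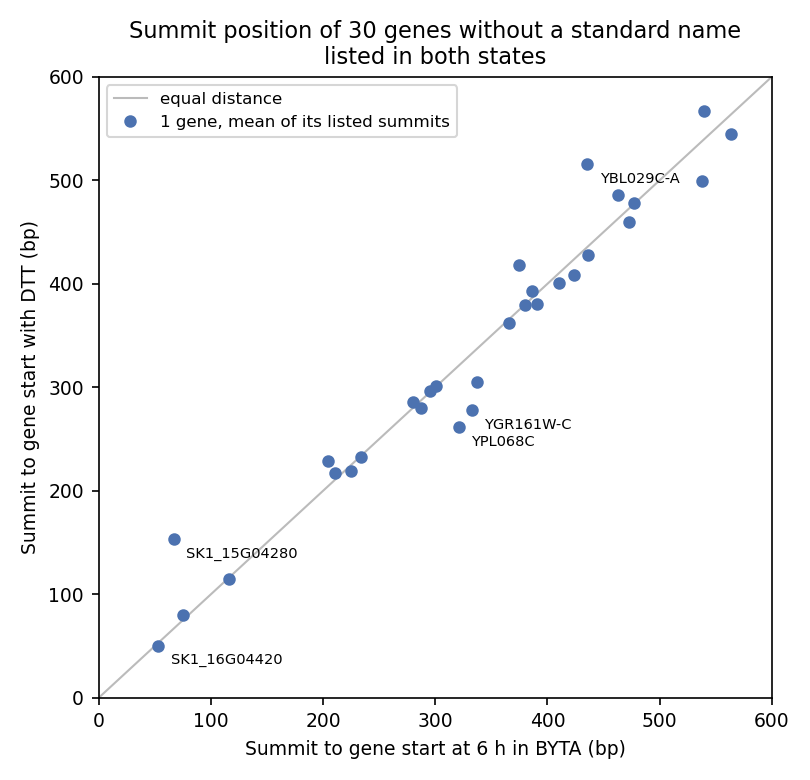
Distance from summit to gene start with DTT (y axis, bp) against that at 6 h in BYTA (x axis, bp) for the 30 genes without a standard name listed in both states. Each point is 1 gene and the mean of its listed summits, and the line marks equal distance. Points follow the line from about 50 bp to over 500 bp, with the largest departures, 86.5 bp and 80.5 bp, at SK1_15G04280 and YBL029C-A.

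Whether a named gene shared the summit differed from gene to gene. A summit of 32 of the 92 genes (34.8%) lay in the window of a second gene as well, against 193 of 469 (41.2%) for the others. For 28 of the 32 the set of partners included a named gene, and the other 4 form the pairs TOG1 with PUG1 and YNL193W with YNL194C. Of 67 shared listings, the start of the gene without a standard name was nearer to the summit in 26. Among the genes called with DTT, 11 of 39 shared a summit (28.2%), each with a named gene, against 104 of 247 for the other genes called with DTT (42.1%). These partners include SEC24 (with YIL108W), for a coat protein of vesicles that leave the ER, and ALG14 (with YBR071W), for an enzyme of N-glycosylation. They also include MPD1 (with YOR289W), for an ER disulfide isomerase, SRL1 (with ENV9), CDC45 (with LCL2), DOG1 (with DDE1), ZAP1 (with LOG1), RTS3 (with YGR161W-C), SNA2 (with YDR524C-B), HNT1 (with YDL124W) and ZPR1 (with YGR210C). At the MPD1 promoter the summits lay 187 and 176 bp from YOR289W and 93 and 104 bp from MPD1. At that of SEC24 they lay 490 and 482 bp from YIL108W with DTT, and 234 and 242 bp from SEC24.

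Of the 82 genes with a systematic name, 47 (57.3%) have a divergent neighbour upstream in the R64 gene order, and 30 of these 47 (63.8%) shared a summit with it. For the other listed genes 267 of 469 (56.9%) have such a neighbour and 179 of these (67.0%) shared a summit with it. The remaining 35 genes have a neighbour on the same strand upstream. Of these 35, 0 shared a summit, against 7 of 202 such genes among the others. SPO24, TDA1, VHR2, YIL055C and ULI1 were listed with summits of their own. A letter suffix in the systematic name was found in 11 of 82 genes (13.4%), against 7 of 469 (1.49%) for the others. All 11 suffixed genes were listed at 6 h in BYTA and 7 were called there, while 6 were listed and 5 called with DTT. Of all 561 genes, 63.3% were listed and 19.3% called at 6 h in BYTA, and 68.3% were listed and 51.0% called with DTT. With 11 genes this was not tested.

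Of the 10 identifiers without a systematic name, 5 were in DTT lists (68.3% of all genes) and 9 in 6 h BYTA lists (63.3% of all genes). With DTT 4 were called (51.0% of all genes), and 3 at 6 h in BYTA (19.3% of all genes). They were listed in no other state, but DTT and 6 h BYTA lists also held 444 of the 469 genes with a standard name. SK1_07G04970 had its summits 302 and 301 bp upstream with DTT and 301 bp upstream in 6 h BYTA replicate 1. SK1_12G04710 was the 1 gene of these 10 that shared a summit.

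Within a library, the median score percentile was lower for listings of the set than for those of the other genes. A summit shared by several genes counted once for each of them, so some summits counted on both sides. The score percentile, the share of a library's other summits ranked below, was compared in the 9 libraries that listed at least 3 genes of the set. The medians for the set and for the other genes were 49.8 and 51.4 in DTT replicate 1, 42.8 and 51.8 in DTT replicate 2, 41.3 and 49.3 in 6 h BYTA replicate 1, and 40 and 52.2 in 6 h BYTA replicate 2. In the 5 libraries with 3 or 4 genes of the set the medians ran from 17.6 to 36.4, against 57.1 to 64.7 for the other genes. The difference averaged -22.2 percentile points ± 15.4 (SD, n = 9 libraries), lower in 9 of 9 (two-sided exact sign-flip permutation test, adjusted p = 0.00586 over 3 measures). The same promoters recur across libraries, so this p is too small. In the 4 libraries with at least 5 genes of the set the difference was -7.68, which such a test cannot call (smallest possible exact p = 0.125). Without the 49 genes that have a RefSeq symbol, 4 libraries remained, with a difference of -6.22, lower in 3 of 4, which the test could not call either.

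Listings of the set also had a second window less often, in 26.5% against 39.6% with DTT replicate 1, 27.3% against 40.8% with DTT replicate 2, 37.7% against 41.1% in 6 h BYTA replicate 1 and 33.3% against 43.6% in replicate 2. Over the 9 libraries the difference averaged -14.5 percentage points ± 14.2 (SD, n = 9), lower in 9 of 9 (exact sign-flip permutation test, adjusted p = 0.00586). Vegetative replicate 1, with 0 of 3 against 50.0%, contributed the largest difference, and without it the mean was -10.0 (exact test, adjusted p = 0.0117). The same genes recur across these libraries, and of the set only CMC4 shared some but not all of its summits. So this p is too small as well. With the state as the unit the difference was -16.5 percentage points over 6 states (exact test, adjusted p = 0.0469). Genes recur across states too, so that p is also too small, and unadjusted it was the smallest the exact test can give (0.03125). Without genes that have a RefSeq symbol the difference was -10.1, lower in 4 of 4 libraries. With 4 libraries the exact test cannot pass (smallest possible p = 0.125).

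The median distance to the gene start within a library was on average 48.5 bp larger for the set (SD 54.2, n = 9 libraries). It was higher in 6 of 9 (exact sign-flip permutation test, adjusted p = 0.0430). Here too the same promoters recur across libraries, so this p is too small. The medians were 327 and 344.5 bp with DTT, against 340 and 355 bp for the other genes in those libraries. The 4 libraries with at least 5 genes of the set gave a difference of -3 bp, lower in 3 of 4, so the direction rests on the libraries with 3 or 4 genes. Leaving out vegetative replicate 1, 6 h BYTA replicate 1, either 21 h BYTA library, or replicate 2 at 5.5 h or at 8 h also ended the call (exact test, adjusted p from 0.0625 to 0.0859). Per gene, the mean distance had a median of 351 bp in the set and 340 bp in the others. It was under 150 bp for 5 of the 92 (5.43%), against 35 of the others (7.46%). For 29 it was over 450 bp (31.5%), against 118 (25.2%).

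**Figure D4:**
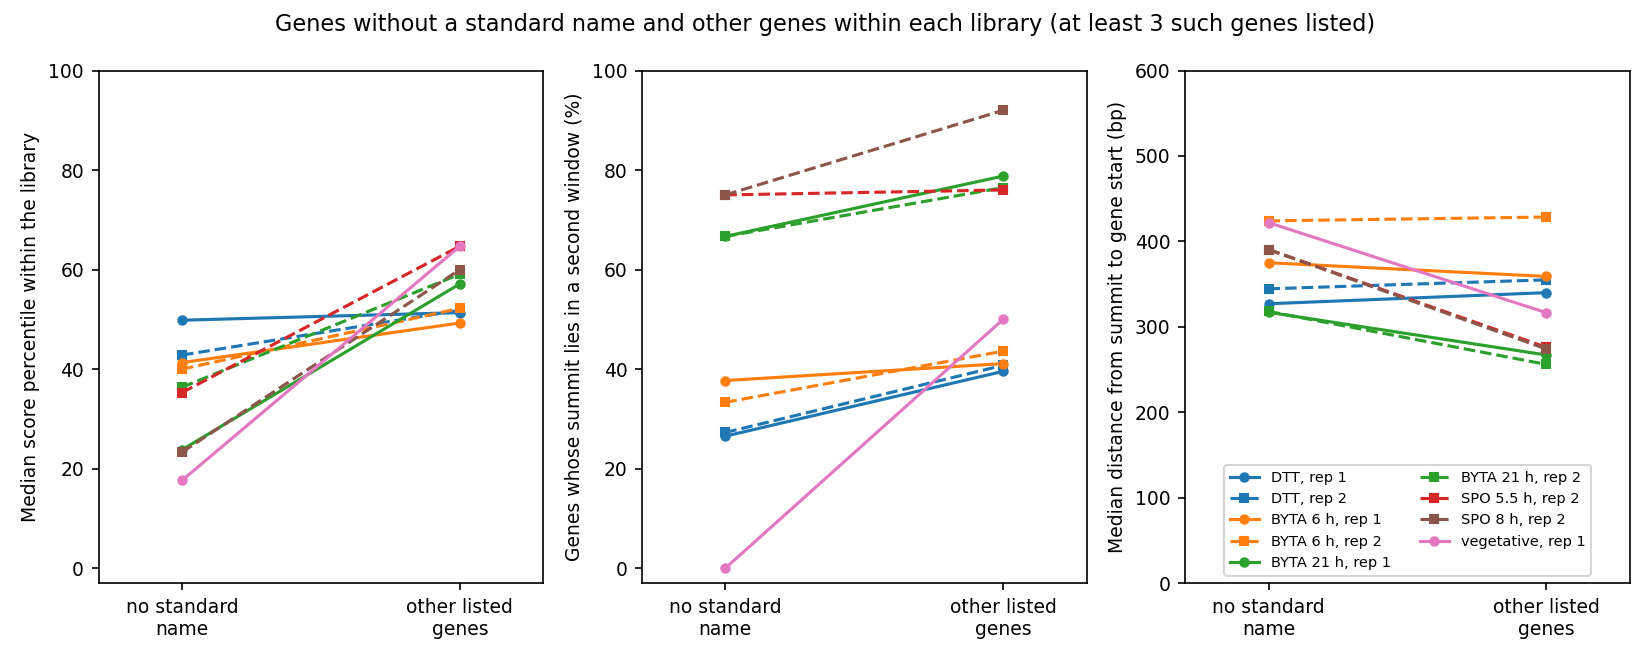
Median score percentile (left), share of genes whose summit also lies in a second window (middle, %) and median summit distance (right, bp) for genes without a standard name and for the other listed genes. Each line joins the values of 1 of the 9 libraries that list at least 3 such genes. Percentile and shared windows are lower for the genes without a standard name in 9 of 9 libraries, while the distance is higher in 6 and lower in 3.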

How the data were processed

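ChIP and input libraries were sequenced from 7 states of SK1 yeast, 28 libraries in all, and the 14 tables of ChIP summits were analysed. A score for each summit was deposited by the authors, and nothing in the headers says what kind of score it is. The other deposited columns used here give positions, per the file headers. The submitters' processing notes name ChIPseeker 1.44.0, MACS2 2.2.9.1, SAMtools 1.7 and Bowtie2 2.3.4.1 and give no roles. No label or header names the SK1 assembly. Each table was matched to its library through the peak names it holds. Coordinates are those of the tables.

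All computing used Python 3.11.15, pandas 2.3.3, NumPy 2.4.6 and SciPy 1.17.1. The exact permutation tests were tested on simulated data. The 3 comparisons within libraries were adjusted by the Benjamini-Hochberg method, and the threshold was 0.05. RefSeq R64 was used for names and gene order, and all 82 systematic names were found there. Protein lengths and promoter sequences, which the plan named, were not used here. The genes, lists and tests were chosen with earlier results of these data known. By rule, named genes are those called outside DTT, the 10 best-ranked with DTT, the 10 listed in most libraries, those with no systematic name and those with a RefSeq symbol. The remaining genes are named so that each is accounted for.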

Additional observations from a re-analysis of the deposited data

How the results depend on the processing

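Of 55 alternatives to the 4 tested results, 41 kept direction and side of the threshold, and of 49 alternative counts of called genes, 32 stayed within 1.5 times the count reported. Counting genes listed in either library gave 4 instead of 1 in vegetative cells, 63 instead of 19 at 6 h in BYTA, and 4, 2 and 4 instead of 0 at the 3 sporulation times. Each replicate alone gave 2 to 3 genes in vegetative cells, 21 to 61 at 6 h in BYTA, and 0 to 4, 0 to 2 and 0 to 4 in sporulation medium. With scores of at least 500 the counts were 0 in vegetative cells, 10 at 6 h in BYTA and 0 at 21 h in BYTA. With the nearest gene alone, 1 was called at 21 h in BYTA. Without genes that have a RefSeq symbol, 21 were called with DTT and 11 at 6 h in BYTA.

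In libraries with at least 5 genes of the set, the differences from the other genes were -7.68 percentile points, -10.1 percentage points for shared windows and -3 bp for distance, which reversed. Without RefSeq symbols they were -6.22, -10.1 and 9 bp. Both settings left 4 libraries, with which no exact test can pass. The distance difference also missed the threshold with the nearest gene alone (40.5 bp) and with the state as the unit (64.4 bp), and ran from 40 to 56.2 bp when 1 library was left out. For these 3 measures, the state as the unit, the removal of RefSeq symbols, the restriction to genes with a systematic name and the removal of single libraries were chosen after seeing the data. The depth of the libraries is unknown, and list length limits every count.

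Same-numbered libraries deviated together among the 3 sporulation times (correlations 0.624, 0.562 and 0.423) and hardly elsewhere, with 4 of 21 pairs of states over 0.1, so the numbers were not taken to pair the libraries across all states. With the replicate block, the share difference between meiotic and premeiotic libraries had an exact permutation p of 0.08 (difference -7.07 percentage points).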
